A study of Mus musculus with 6 samples.

Results

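The genes described here are *Neurog3* and 9 transcription factor genes of the endocrine progenitor programme of the pancreas that act downstream of it or beside it, namely *Neurod1*, *Insm1*, *Nkx2-2*, *Pax4*, *Fev*, *Rfx6*, *St18*, *Myt1* and *Sox4*. These 10 genes were taken by symbol from a given list that no measured threshold defined, although earlier results of these data were known when it was drawn up, and all 10 were found among the 37224 genes counted. The study examined S1pr2 signalling in the developing mouse pancreas, and the samples used here were wild-type (wt) C57/Bl6J pancreata taken at 13.5 or 15.5 days post coitum (dpc), 3 independent samples of each. Each sample was a pool of the whole pancreata of up to 3 embryos, and no cells were sorted, so every value is an average over epithelium, mesenchyme, nerve, vessel and blood cells. No sample carried an engineered allele or had been treated.

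*Neurog3* encodes a basic helix-loop-helix (bHLH) activator that is switched on briefly in single cells of the pancreatic epithelium and is required for all islet cell types to form. Notch signalling keeps it off in neighbouring cells, and cells that reach a high level leave the cell cycle, move out of the epithelium and switch on a cascade of further transcription factors before they make a hormone. The stages compared here fall within the secondary transition, when this occurs most widely and when the acinar cells differentiate.

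bHLH factors bind the E-box, written CANNTG. The 250 bases upstream of the annotated start were read from a set of RefSeq windows on GRCm38.p6 (mm10), on the strand of the gene. This set held 7 of the 10 genes and lacked *Insm1*, *Pax4* and *St18*. The windows of *Neurog3*, of its direct targets *Neurod1* and *Nkx2-2*, and of *Sox4*, which had the largest difference between the stages, are shown with every E-box in capitals.
Neurog3, chr10:62132840-62133089, plus strand: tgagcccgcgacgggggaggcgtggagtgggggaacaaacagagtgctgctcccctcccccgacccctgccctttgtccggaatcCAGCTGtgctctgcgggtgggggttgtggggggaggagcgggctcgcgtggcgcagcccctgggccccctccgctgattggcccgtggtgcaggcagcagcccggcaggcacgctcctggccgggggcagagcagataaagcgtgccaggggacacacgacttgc
Neurod1, chr2:79456637-79456886, minus strand: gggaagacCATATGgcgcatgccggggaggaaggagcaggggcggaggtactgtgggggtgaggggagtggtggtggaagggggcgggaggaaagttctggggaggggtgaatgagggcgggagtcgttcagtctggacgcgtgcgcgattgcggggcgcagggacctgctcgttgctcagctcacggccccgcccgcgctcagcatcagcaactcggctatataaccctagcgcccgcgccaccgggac
Nkx2-2, chr2:147186403-147186652, minus strand: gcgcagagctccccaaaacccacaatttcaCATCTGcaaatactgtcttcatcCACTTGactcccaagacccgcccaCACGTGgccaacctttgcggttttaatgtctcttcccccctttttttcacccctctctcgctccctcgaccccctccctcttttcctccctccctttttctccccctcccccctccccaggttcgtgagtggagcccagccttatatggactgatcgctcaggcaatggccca
Sox4, chr13:28953700-28953949, minus strand: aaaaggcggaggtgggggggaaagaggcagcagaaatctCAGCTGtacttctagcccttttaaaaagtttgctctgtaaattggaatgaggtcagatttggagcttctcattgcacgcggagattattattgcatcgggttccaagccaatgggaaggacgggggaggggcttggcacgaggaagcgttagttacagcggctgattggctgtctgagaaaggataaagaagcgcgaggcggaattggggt
The *Nkx2-2* window held 3 E-boxes, at 220, 197 and 173 bases before the start, the first of which reads CAGATG on the opposite strand. The *Neurog3* window held 1 E-box at 165 bases, that of *Neurod1* 1 at 242 bases and that of *Sox4* 1 at 211 bases. The windows of *Fev* and *Rfx6* held none, and the 3 starts listed for *Myt1* held 0, 2 and 1. The starts used for *Nkx2-2* and *Rfx6* lie inside the genes as counted here, and the windows before the outer ends of these genes were not read. Of 32851 mouse windows of the same length, 66.2% held an E-box on either strand, 12.2% held 3 or more and 14.4% held CAGATG. The N-box CACNAG, to which the Notch effectors of the Hes family bind, was found on either strand in the *Sox4* and *Rfx6* windows and in 36.7% of all windows. These are matches of letters only, and binding was not measured.

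The total counts were 10546028 to 16389237 per sample, and the TMM factors of edgeR, which correct for the make-up of each library, were 0.847 to 1.08. Levels below are normalised counts, which are the counts divided by the TMM-scaled library size and brought back to a common size. All pairs of samples of a stage differed by more than sampling noise, and the most distant were 15.5 dpc replicates 1 and 2. The summed normalised counts of 11 acinar markers, all 11 of which were higher at 15.5 dpc, were 98227 to 118076 at 13.5 dpc and 1342309, 628581 and 873527 in 15.5 dpc replicates 1, 2 and 3. Those of 10 epithelial markers were 33362 to 34720 at 13.5 dpc and 67051, 44840 and 51463 at 15.5 dpc.

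At 15.5 dpc, 4 of the 10 genes were down-regulated (*Sox4*, *Insm1*, *Neurog3* and *Nkx2-2*). The other 6 genes did not pass the test, although the estimates of all 10 were below 0. The median log2 fold change (15.5 over 13.5 dpc) of the 10 genes was -0.33, against -0.01 over the 15578 genes tested. Of all genes tested, 22.3% were called in either direction, 10.7% lower and 11.6% higher (edgeR quasi-likelihood test, Benjamini-Hochberg adjusted p at or below 0.05). Every 15.5 dpc sample was below every 13.5 dpc sample for 6 of the 10 genes and for 23.6% of all genes tested. In whole pancreata, fewer cells expressing a gene and less RNA of it per cell cannot be told apart. The number of calls was 1 (*Sox4*) when any of the 13.5 dpc samples or 15.5 dpc replicate 3 was left out, 6 without 15.5 dpc replicate 1 and 8 without 15.5 dpc replicate 2. Of all genes tested, 3.29%, 3.74% and 3.84% were called lower without 13.5 dpc replicates 1, 2 and 3, and 12.8%, 23.3% and 3.65% without 15.5 dpc replicates 1, 2 and 3.

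*Neurog3* lies on chromosome 10 (62133090 to 62134763, plus strand, mm10). The 13.5 dpc samples held 2310, 2193 and 2237 normalised counts of it, and the 15.5 dpc samples 1879, 1662 and 1831. All 15.5 dpc samples were below all 13.5 dpc samples, and the samples of each stage lay close together. The mean fell by 20.3%, from 2247 ± 58.9 to 1791 ± 114 (SD, n = 3), a log2 fold change of -0.33 (SE 0.09, adjusted p = 0.0372, edgeR). *Neurog3* transcripts at 15.5 dpc thus stood at 0.797 of their 13.5 dpc level. When each sample was left out in turn the adjusted p was 0.0111 to 0.157.
The exons of *Neurog3* overlap those of *Fam241b* on the opposite strand by 273 of 1540 bases. *Fam241b* had 230 to 295 normalised counts in the 6 samples and a log2 fold change of -0.09 (adjusted p = 0.615, edgeR). The libraries keep the strand, but the strand setting of the authors' counting is not given in the sources used here.

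*Neurod1*, *Insm1* and *Pax4* are switched on early after *Neurog3*, and *Nkx2-2* is described with them. *Neurod1* (chromosome 2, 79452521 to 79456751, minus strand) is a bHLH factor that maintains endocrine differentiation and later activates the insulin gene. It had 313, 358 and 316 normalised counts at 13.5 dpc and 280, 362 and 320 at 15.5 dpc, so the stages overlapped fully. Its log2 fold change was -0.04 (SE 0.13, adjusted p = 0.853, edgeR) and turned to 0.03 if 13.5 dpc replicate 2 was left out and to 0.05 if 15.5 dpc replicate 1 was. *Neurod1* was therefore the factor with the smallest difference between the stages. Its exons share 201 bases with *Cerkl* on the same strand, which had at most 22.8 normalised counts in any sample.
*Insm1* (chromosome 2, 146221921 to 146225016, plus strand) is a zinc finger repressor needed for endocrine cells to leave the progenitor state. It had 913, 968 and 955 normalised counts at 13.5 dpc against 695, 781 and 732 at 15.5 dpc. The stages did not overlap. Its log2 fold change was -0.36 (SE 0.09, adjusted p = 0.0287, edgeR).
*Nkx2-2* (chromosome 2, 147177546 to 147194243, minus strand) is a homeodomain repressor that is needed for beta cells and holds back the ghrelin cell fate. It had 1253, 1245 and 1309 normalised counts in the earlier samples and 945, 1036 and 1053 in the later ones, again without overlap. The log2 fold change of -0.33 (SE 0.09, adjusted p = 0.0366, edgeR) equalled that of *Neurog3* to 2 decimals. Without the filter on low counts the adjusted p was 0.0546.
*Pax4* (chromosome 6, 28442334 to 28449353, minus strand) is a paired homeodomain repressor that favours the beta and delta over the alpha cell fate. It had 190, 224 and 205 normalised counts at 13.5 dpc and 165, 162 and 141 at 15.5 dpc. Although the stages did not overlap, its log2 fold change of -0.41 (SE 0.13) just missed the threshold (adjusted p = 0.0558, edgeR).

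*Fev* marks the step that follows, when endocrine precursors have lost or are losing *Neurog3*, and *Rfx6* is described beside it. *Fev* (chromosome 1, 74881509 to 74885419, minus strand) is an ETS factor known from serotonergic neurons, whose programme immature beta cells share. At 13.5 dpc it had 258, 267 and 279 normalised counts, which compares with 239, 223 and 198 at 15.5 dpc. The 15.5 dpc samples were all lower, with a log2 fold change of -0.28 (SE 0.11) that did not pass the test (adjusted p = 0.11, edgeR).
*Rfx6* (chromosome 10, 51677756 to 51730429, plus strand) is a winged helix factor needed for the formation and later for the function of most islet cell types. It had 205, 249 and 230 normalised counts at 13.5 dpc and 165, 241 and 171 at 15.5 dpc. Replicate 2 of 15.5 dpc lay within the 13.5 dpc range and the other two below it, and the difference of -0.24 on the log2 scale (SE 0.17, adjusted p = 0.335, edgeR) was within the spread of the samples. It was -0.43 to -0.13 with each sample left out, and was called without 15.5 dpc replicate 2 (adjusted p = 0.0289).

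*Myt1* and *St18* are related zinc finger genes that are expressed in both endocrine progenitors and neurons. *Myt1* (chromosome 2, 181763332 to 181827797, plus strand) had 342, 387 and 380 normalised counts at 13.5 dpc and 184, 366 and 283 at 15.5 dpc. *St18* (chromosome 1, 6487231 to 6860940, plus strand) had 107, 106 and 129 at 13.5 dpc and 63.7, 122 and 89.4 at 15.5 dpc. In both genes 15.5 dpc replicate 1 was the lowest of the 6 samples and 15.5 dpc replicate 2 was within the 13.5 dpc range. Neither passed the test. The log2 fold change of *Myt1* was -0.40 (SE 0.23, adjusted p = 0.222, edgeR) and that of *St18* was -0.30 (SE 0.23, adjusted p = 0.363, edgeR). With each sample left out they ranged from -0.64 to -0.18 and from -0.56 to -0.10, and both were called without 15.5 dpc replicate 2 (adjusted p = 0.0162 and 0.0437).

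*Sox4* (chromosome 13, 28948919 to 28953713, minus strand) encodes an HMG box factor that acts both upstream of *Neurog3* and later in islet cells, and which is also widely expressed in mesenchyme and nerve of the embryo. It had 5874, 5530 and 5844 normalised counts at 13.5 dpc and 2286, 3393 and 2886 at 15.5 dpc. All 15.5 dpc samples were far below the 13.5 dpc samples. The mean fell by 50.3%, a log2 fold change of -1.01 (SE 0.15, adjusted p = 0.00411, edgeR). Under the other scalings its log2 fold change was -1.61 to -0.91, and leaving out each sample in turn gave -1.14 to -0.87. *Sox4* was the only one of the 10 genes called in each alternative run.

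**Figure D1:**
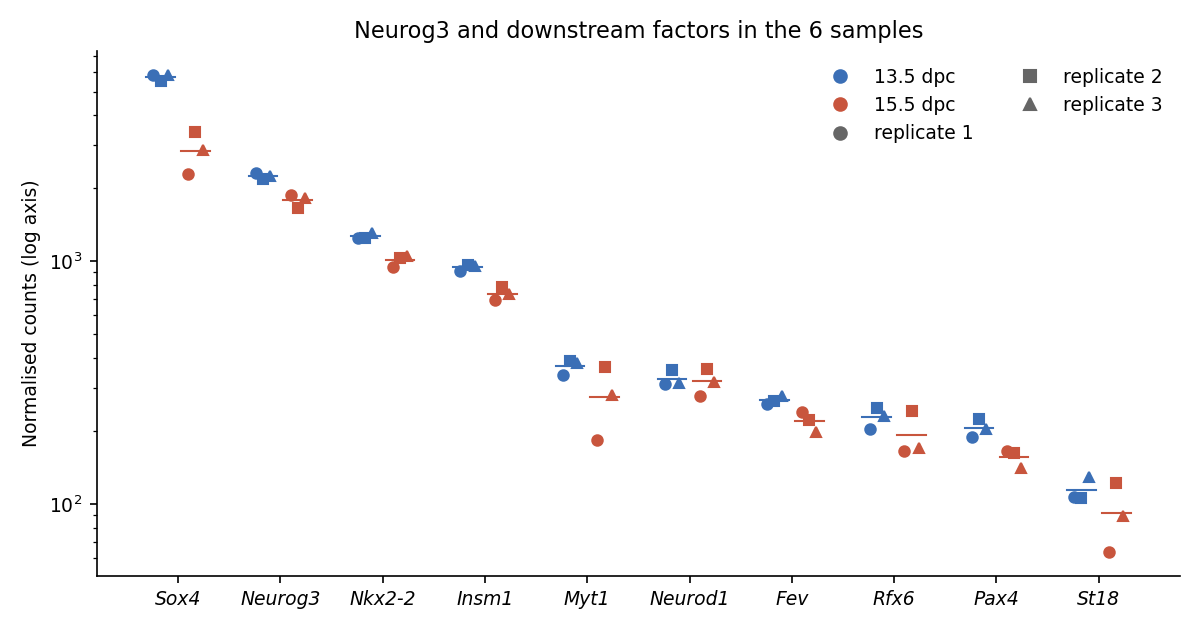
Normalised counts (log axis) of the 10 genes in each of the 6 samples, ordered by the 13.5 dpc mean, with a symbol for each replicate number and a line at each stage mean. The 15.5 dpc samples of *Sox4* (2286 to 3393) lie well below those of 13.5 dpc (5530 to 5874), the stages of *Neurog3*, *Nkx2-2*, *Insm1*, *Fev* and *Pax4* are narrowly apart, and those of *Neurod1*, *Rfx6*, *Myt1* and *St18* overlap.

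The 15.5 dpc samples ranked in opposite ways among the 10 genes. *Neurog3*, *Fev* and *Pax4* were highest in replicate 1, whereas the other 7 genes were lowest there. The former are the 3 genes with the shortest exons (1540, 1617 and 1955 bases), and the other 7 have 2729 to 6905 bases. The log2 ratio of 15.5 dpc replicate 1 over replicate 2 was 0.18 for *Neurog3*, -0.17 for *Insm1*, -0.57 for *Sox4* and -0.99 for *Myt1*. Over all genes tested, the median of this ratio was 0.59 for the 3817 genes with under 2000 exon bases and -0.56 for the 3148 genes with over 6000.
With the trend of each library with exon length removed, all 10 genes were lower in 15.5 dpc replicate 1 than in replicate 2, with log2 ratios of -0.57 (*Myt1*) to -0.24 (*Insm1*). The counts of *Neurog3* then became 2415, 2312 and 2475 at 13.5 dpc and 1491, 1799 and 1748 at 15.5 dpc. The log2 fold change of *Neurog3* was then -0.52 (SE 0.09, adjusted p = 0.00323, edgeR), a larger difference than without this step. *Pax4* (-0.53, adjusted p = 0.0152, edgeR) and *Fev* (-0.46, adjusted p = 0.0211, edgeR) then also passed the test, which brought the genes called lower to 6 of 10, against 14.7% of all genes tested. *Myt1* moved the other way, to -0.23 (adjusted p = 0.235, edgeR).

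Because the summed epithelial markers were higher in every 15.5 dpc sample, the 10 genes were also scaled to the summed counts of the 10 epithelial markers. *Neurog3* amounted to 6.92%, 6.32% and 6.54% of that sum at 13.5 dpc and to 2.80%, 3.71% and 3.56% at 15.5 dpc. *Neurod1*, which did not pass the test under TMM, fell from 0.940%, 1.03% and 0.923% to 0.417%, 0.807% and 0.621%. All 10 genes were lower in every 15.5 dpc sample on this scale. The share of all genes for which this held was not computed, so the count has no background to be read against. The log2 fold change of *Neurog3* was -0.97 (SE 0.14, adjusted p = 0.00491, edgeR), and 9 of the 10 genes were called lower, *St18* being the exception (-0.90, adjusted p = 0.0575, edgeR). This scaling shifted the median of all genes to -0.65, and 55.9% of all genes were called lower by it. Relative to that shift the difference of *Neurog3* was close to its difference under TMM.

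**Figure D2:**
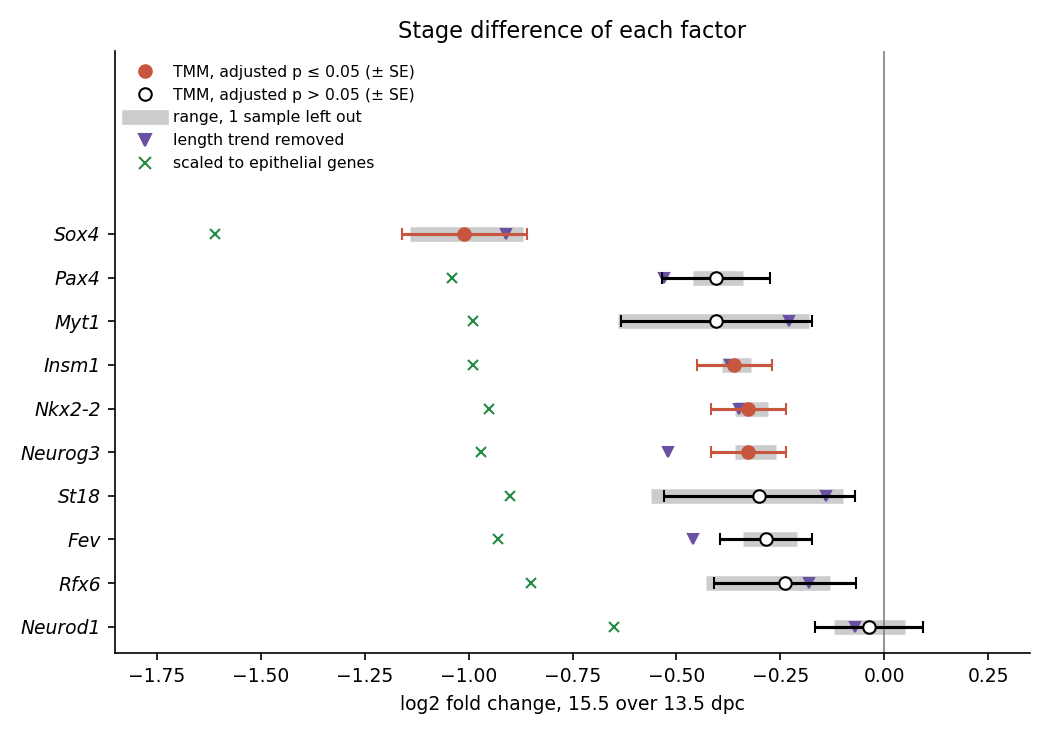
Log2 fold change (15.5 over 13.5 dpc) of each gene with its SE, filled where the adjusted p was at or below 0.05. Grey bars give the range when each sample was left out, triangles the value with the length trend removed and crosses the value scaled to epithelial genes, which was -1.61 for *Sox4* and -0.65 for *Neurod1*.

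Levels of different genes were compared per length, as reads per kb of exon per 1000000 TMM-scaled counts (RPKM). *Neurog3* was the highest of the 10 genes, with 115 ± 3.03 RPKM at 13.5 dpc and 92.0 ± 5.87 at 15.5 dpc (SD, n = 3). *Sox4* followed with 94.9 ± 3.15 and 47.1 ± 9.14 RPKM. *Sox4* has the higher count but also the longer exons (4795 against 1540 bases), and its samples did not overlap with those of *Neurog3* in either stage. Then came *Nkx2-2* (34.9 and 27.8 RPKM) and *Insm1* (24.2 and 18.8 RPKM), followed by *Fev* (13.1 and 10.8), *Neurod1* (9.55 and 9.29), *Pax4* (8.35 and 6.30), *Rfx6* (4.52 and 3.81), *Myt1* (4.23 and 3.18) and *St18* (1.39 and 1.12). The order was the same in both stages and in each of the 6 samples. Neighbours whose ranges over the samples of a stage overlapped, although their order held within each sample, were *Rfx6* and *Myt1* at both stages and *Fev* and *Neurod1* at 15.5 dpc. With the longest transcript in place of all exons, *Pax4* passed *Neurod1* and *Myt1* passed *Rfx6* at 13.5 dpc.

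The 10 genes stood differently to their family relatives. *Neurog1* and *Neurog2*, the neurogenins of the nervous system, had a count of 0 in all 6 samples, as did *Neurod6*, *Nkx2-1* and *Nkx2-6*, which allows up to 3 counts per sample (counting error only). Of the 25 relatives examined, 11 were under 10 normalised counts on average and 14 were tested. *Neurod2* had 1.37 RPKM at 13.5 dpc, against 9.55 of *Neurod1*, and *Insm2* had 0.094 RPKM, against 24.2 of *Insm1*. *Nkx2-3*, a gene of the spleen and gut mesenchyme, had 13.5 RPKM at 13.5 dpc and 8.02 at 15.5 dpc, with a log2 fold change of -0.75 (adjusted p = 0.00451, edgeR). The Sox factors of the same subgroup as *Sox4* fell as well. *Sox11* had a log2 fold change of -1.14 (SE 0.28, adjusted p = 0.0263, edgeR) and *Sox12* one of -0.38 (SE 0.09, adjusted p = 0.0218, edgeR). These 3 genes were the relatives called, all of them lower, and the median over the 14 relatives tested was -0.24. Read against the 22.3% of all genes called, 3 of 14 is near the background. The calls of *Sox11* and *Sox12* did not hold when any of the 13.5 dpc samples or 15.5 dpc replicate 3 was left out (adjusted p up to 0.107 and 0.102). Among the Rfx genes, *Rfx1* (10.4 RPKM at 13.5 dpc), *Rfx7* (5.65 and 4.34 RPKM) and *Rfx5* (5.07 and 4.69 RPKM) had higher means than *Rfx6* (4.52 and 3.81 RPKM) at both stages.

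**Figure D3:**
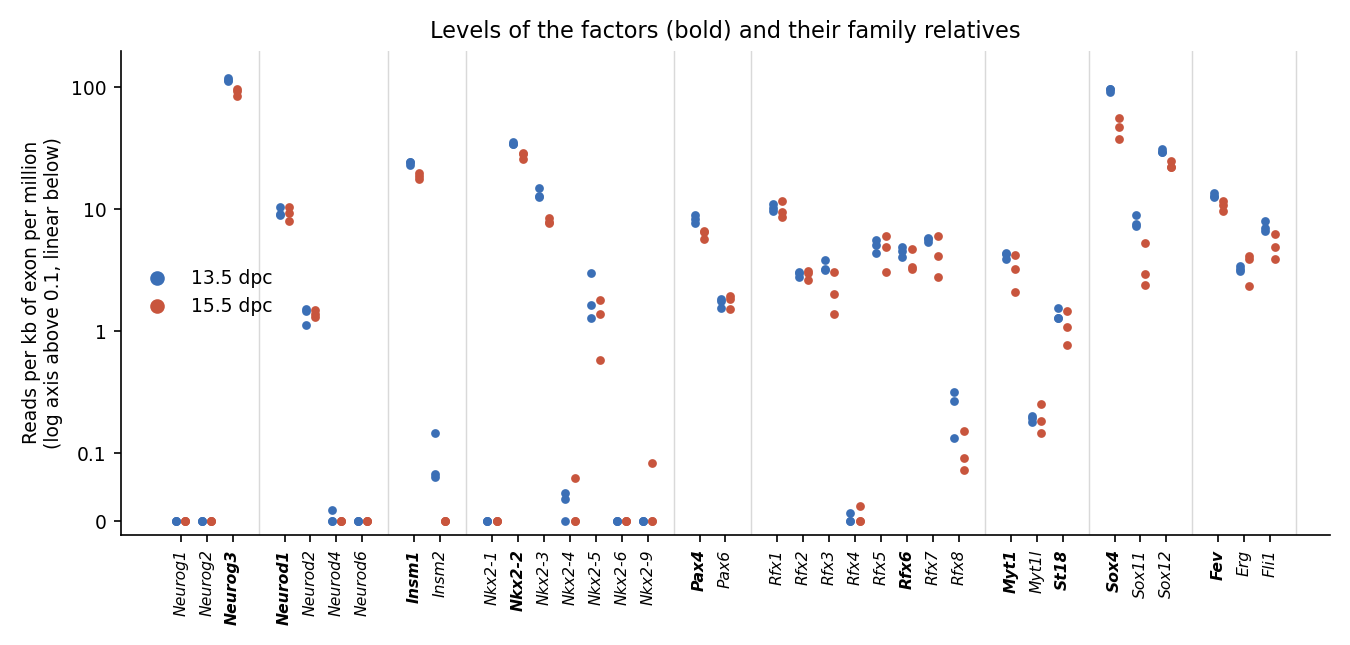
Reads per kb of exon per 1000000 counts (log axis above 0.1) of the 10 genes, in bold, and of their family relatives, in each sample of 13.5 dpc (blue) and 15.5 dpc (red). *Neurog3* lies near 100 while *Neurog1* and *Neurog2* are at 0, and *Sox4*, *Sox11* and *Sox12* are all lower at 15.5 dpc.

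To see whether the downstream factors kept pace with *Neurog3*, the count of each was taken as a percentage of that of *Neurog3* in the same sample, which cancels the scaling between libraries but not their trend with exon length. *Nkx2-2* was 54.2%, 56.8% and 58.5% of *Neurog3* at 13.5 dpc and 50.3%, 62.3% and 57.5% at 15.5 dpc. *Insm1* was 39.5% to 44.1% at 13.5 dpc and 37.0% to 47.0% at 15.5 dpc. For these genes the ratio differed between the stages by 0.00 and -0.03 on the log2 scale, less than the SD of 0.16 and 0.18 among the 15.5 dpc samples.
*Neurod1* was 13.6%, 16.3% and 14.1% of *Neurog3* at 13.5 dpc and 14.9%, 21.8% and 17.5% at 15.5 dpc, a difference of 0.28 (0.14 to 0.41 with each sample left out, exact permutation test, two-sided, p = 0.2, adjusted p = 0.9). *Sox4* was 254%, 252% and 261% at 13.5 dpc and 122%, 204% and 158% at 15.5 dpc, and was the only factor whose ratio did not overlap between the stages before the length trend was removed. Its difference was -0.70 (-0.89 to -0.51 with each sample left out, exact permutation test, two-sided, p = 0.1, adjusted p = 0.9 over the 9 ratios), and 0.1 is the smallest p that 3 samples against 3 allow. The ratios of *Pax4*, *Fev*, *Rfx6*, *St18* and *Myt1* differed by -0.14 to 0.07, and all overlapped. With the length trend removed, a step added to the ratios after seeing the data, *Sox4* was 237%, 231% and 224% of *Neurog3* at 13.5 dpc and 171%, 183% and 171% at 15.5 dpc. Its difference was then -0.40 instead of -0.70. *Neurod1* was at 0.43, *St18* at 0.35 and *Nkx2-2* at 0.16, and the stages of these 3 ratios no longer overlapped. *Rfx6* moved from 0.07 to 0.32, *Myt1* turned to 0.26 and *Insm1* to 0.15, all with overlap, and no adjusted p was below 0.225 (exact permutation test, two-sided, 9 ratios). With so few samples a p above the threshold does not show that the ratios were equal.

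**Figure D4:**
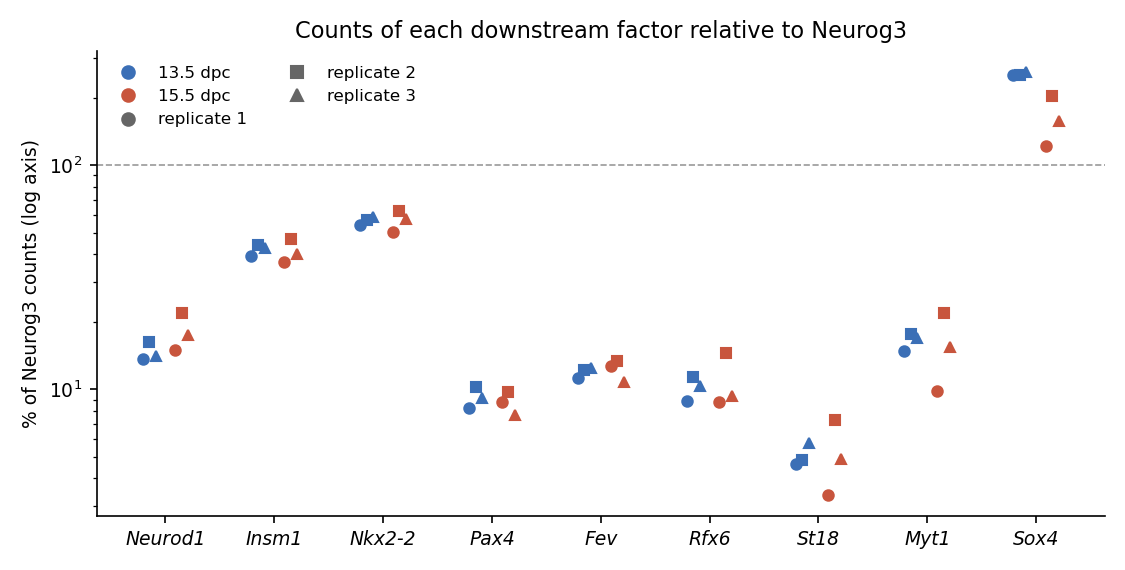
Counts of each downstream factor as a percentage of those of *Neurog3* in the same sample (log axis), with 100% dashed. *Sox4* drops from 252% to 261% at 13.5 dpc to 122% to 204% at 15.5 dpc, and the stages of the other 8 factors overlap in these counts, from which the length trend was not removed.

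Over the 6 samples, the genes with the pattern most like *Neurog3* were not among its downstream factors. The measure was the root mean square difference in log2 normalised counts, each gene centred on its mean, over 10864 protein-coding genes with a mean of at least 100 normalised counts. The smallest differences were those of *Tmem80* (0.0176), *Tlcd2* (0.0251), *B4galt2* (0.0251), *Klc4* (0.0274) and *Nelfcd* (0.0285). The closest of the 9 factors were *Nkx2-2* (0.0958, with 314 of the 10864 genes closer), *Fev* (0.108, 473 closer) and *Insm1* (0.114, 581 closer). The farthest was *Sox4* (0.411, 8585 closer). With so many genes and only 6 samples, unrelated genes can have close patterns, so the ranking does not tell how the factors relate to *Neurog3*. The counts used still held the trend with exon length. For *Sox4* the nearest genes were *Rnf157* (0.0277), *Irs1* (0.0416), *Rhobtb1* (0.0434), *Dzip1* (0.0434) and *Adgra2* (0.0492). The exons of these 5 genes are long, with 4744 to 9537 bases.

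The activators known to act on *Neurog3* went both ways, with 3 of 11 higher, 2 lower and a median log2 fold change of -0.21, against 11.6% and 10.7% of all genes. *Sox9*, the factor of the bipotent trunk progenitors from which endocrine cells arise, fell with a log2 fold change of -0.67 (SE 0.13, adjusted p = 0.0123, edgeR). *Nkx6-1*, also a trunk factor, fell by 0.39 on that scale (SE 0.08, adjusted p = 0.0178, edgeR). *Gata4*, which becomes restricted to acinar progenitors, rose by 1.15 (SE 0.11, adjusted p = 0.000907, edgeR). *Foxa2* rose by 0.40 under TMM (SE 0.10, adjusted p = 0.0317, edgeR), and was at -0.26 when scaled to epithelial genes, where the median of all genes was -0.65. *Foxa1* was under 10 normalised counts. The calls of *Sox9*, *Nkx6-1* and *Foxa2* did not hold when any of the 13.5 dpc samples or 15.5 dpc replicate 3 was left out, with adjusted p up to 0.0634, 0.093 and 0.136.
The genes of the Notch pathway, which restrains *Neurog3*, were called in both directions, with 3 of 18 higher, 3 lower and a median of -0.17, as were all genes tested (11.6% higher and 10.7% lower). The receptor *Notch2* fell by 1.02 (SE 0.26, adjusted p = 0.0296, edgeR), and the effector *Hey1* fell by 0.60 (SE 0.11, adjusted p = 0.0112, edgeR). *Rbpj*, the DNA-binding partner of the Notch receptors, was also lower (-0.33), but not with the length trend removed (-0.18, adjusted p = 0.193). *Lfng*, a glycosyltransferase that modifies Notch receptors, rose from 563, 617 and 639 normalised counts at 13.5 dpc to 2227, 1326 and 1504 at 15.5 dpc, a log2 fold change of 1.47 (SE 0.19, adjusted p = 0.00287, edgeR). Its relative *Rfng* (0.64) and the ligand *Dll4* (0.54) were higher under TMM, and at -0.02 and -0.11 when scaled to epithelial genes, which is above the median of all genes on that scale. *Hes1*, the effector that represses *Neurog3* directly, had 1239, 1185 and 1129 normalised counts at 13.5 dpc and 1550, 904 and 1150 at 15.5 dpc. The later samples spanned the earlier ones on both sides (log2 fold change 0.02, SE 0.19, adjusted p = 0.951, edgeR). Scaled to epithelial genes it was at -0.67, close to the median of all genes on that scale (-0.65). The calls of *Notch2*, *Rbpj*, *Rfng* and *Dll4* were lost when any of the 13.5 dpc samples or 15.5 dpc replicate 3 was left out (adjusted p up to 0.115, 0.179, 0.0752 and 0.0753), and that of *Hey1* without 13.5 dpc replicates 1 or 3 or 15.5 dpc replicate 3 (up to 0.0695).

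Among 24 other genes known from cells with high *Neurog3*, 8 were lower, 2 were higher and the median was -0.25, against 10.7% and 11.6% of all genes. *Igfbpl1* fell by 1.18 (SE 0.16, adjusted p = 0.00321, edgeR), and the hormone gene *Cck* fell by 1.15 (SE 0.17, adjusted p = 0.00419, edgeR). *Snai2*, a gene of cells that leave an epithelium and also of mesenchyme, fell by 1.10 (SE 0.13, adjusted p = 0.0022, edgeR). The genes that rose were the anti-proliferative gene *Btg2* (0.79, SE 0.12, adjusted p = 0.00477, edgeR) and the corepressor gene *Cbfa2t3* (0.76). Scaled to epithelial genes, where the median of all genes was -0.65, they were at 0.14 (adjusted p = 0.354) and 0.15 (adjusted p = 0.595) and were not called.
Of 18 cofactors of these transcription factors, 4 were lower, 1 was higher and the median was -0.24, so that 5 of 18 were called against 22.3% of all genes. *Tcf3*, which encodes the E proteins with which *Neurog3* and *Neurod1* pair, fell by 0.54 (SE 0.08, adjusted p = 0.0051, edgeR), and *Id2*, whose product sequesters E proteins, rose by 0.68 (SE 0.16, adjusted p = 0.0225, edgeR). The corepressor genes *Cbfa2t2* (-0.58) and *Tle3* (-0.53) and the LIM cofactor gene *Ssbp3* (-0.45) were the other cofactors that fell. With the length trend removed, *Tle3* (-0.21, adjusted p = 0.0844) and *Ssbp3* (-0.25, adjusted p = 0.184) were no longer called, *Cbfa2t2* was at -0.33 and *Id2* at 0.42. Scaled to epithelial genes *Id2* was at 5.2e-05 and not called (adjusted p = 1), against the median of -0.65 over all genes. The calls of *Id2*, *Cbfa2t2*, *Tle3* and *Ssbp3* were lost when any of the 13.5 dpc samples or 15.5 dpc replicate 3 was left out (adjusted p up to 0.095, 0.0629, 0.104 and 0.0796).

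Downstream, the factors of islet cell identity and the products of differentiated endocrine cells differed in their counts. Of 14 identity factors tested, 3 were lower, 1 was higher and the median was -0.30, against the same 10.7% and 11.6%. The delta cell factor *Hhex* fell by 0.60 (SE 0.09, adjusted p = 0.00458, edgeR), and *Nkx6-1*, given above, was also on this list. *Mafa*, which marks maturing beta cells, had 38.5 ± 7.75 normalised counts at 13.5 dpc and 111 ± 0.408 at 15.5 dpc (SD, n = 3), and its log2 fold change was 1.52 (SE 0.17, adjusted p = 0.00173, edgeR).
Of the 20 endocrine products, 13 were higher, 1 was lower and the median was 0.79, where 11.6% of all genes were higher. *Ins2* had 1188, 1625 and 1670 normalised counts at 13.5 dpc and 13823, 5667 and 8524 at 15.5 dpc. *Sst* rose by 3.41 (SE 0.34, adjusted p = 0.00108, edgeR), *Ins2* by 2.64 (SE 0.33, adjusted p = 0.00221, edgeR), *Ins1* by 2.57 (SE 0.32, adjusted p = 0.0022, edgeR) and *Ppy* by 1.97 (SE 0.33, adjusted p = 0.00693, edgeR), and these 4 were called higher also when scaled to epithelial genes (log2 fold changes of 1.28 to 2.70). Among the products only the granule protein gene *Chgb* was called lower (-0.63). The hormone gene *Gcg* was lower in every 15.5 dpc sample than in any 13.5 dpc sample. Its log2 fold change of -0.32 was not called (adjusted p = 0.114, edgeR).

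**Figure D5:**
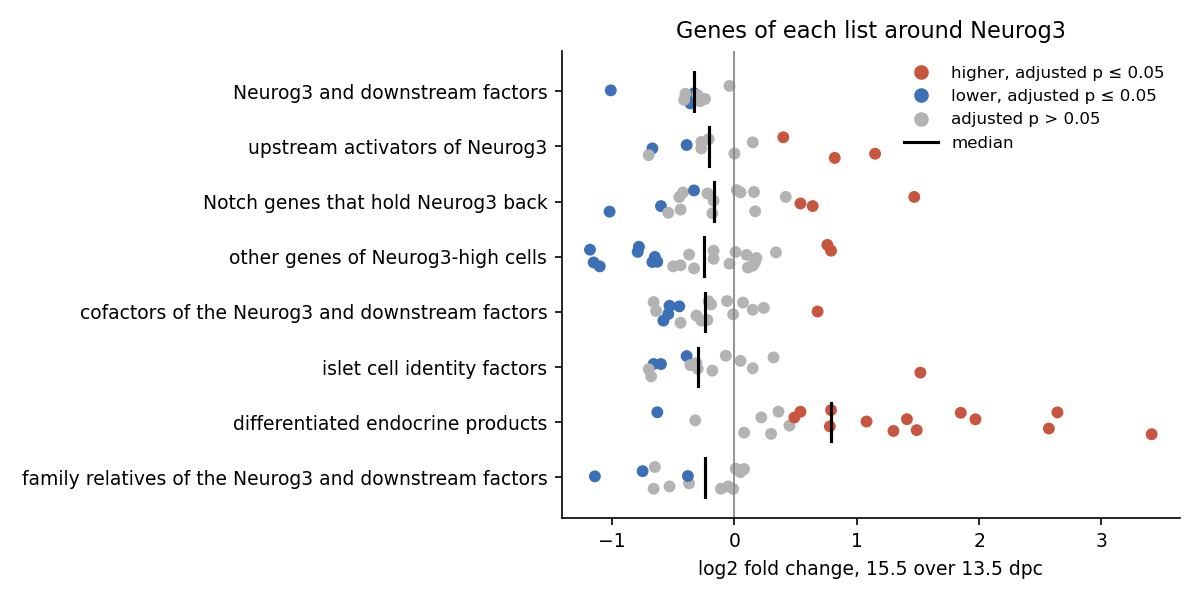
Log2 fold change (15.5 over 13.5 dpc) of the tested genes of each list, coloured by the call, with a black line at the median. The medians of *Neurog3* and its factors and of the lists around them lie between -0.33 and -0.17, and that of the endocrine products lies at 0.79.

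Several of the 10 genes are also expressed outside the epithelium, so the markers of other cell types are given beside them. Their calls are to be read against the 10.7% of all genes called lower and the 11.6% called higher. Of 12 markers of enteric and peripheral neurons, 6 were lower and 2 were higher at 15.5 dpc, and their summed normalised counts were 4617 to 4691 at 13.5 dpc and 3952 to 4170 at 15.5 dpc. Of these, *Hand2* alone had 2143, 2078 and 2074 at 13.5 dpc and 942, 1034 and 1063 at 15.5 dpc. This fall was larger than that of the sum. The median log2 fold change of the 12 markers was -0.54. Of 9 mesenchymal markers, 4 were lower, with a median of -0.65 and sums of 95012 to 106512 at 13.5 dpc and 69365, 101497 and 89215 in 15.5 dpc replicates 1, 2 and 3. Of 7 markers of glia and neural crest 1 was lower, and of the 9 genes of the intestine and its endocrine cells 3 were tested, of which *Vil1* was higher (log2 fold change 1.20) and *Sct* lower (-0.98, with an adjusted p of up to 0.0773 without 13.5 dpc replicate 1 or 3), while 5 were under 10 normalised counts, among them *Cdx1* and *Cdx2*. The summed counts of this list were 324 to 359 at 13.5 dpc and 412 to 544 at 15.5 dpc. Of 5 erythroid markers 2 were higher, with sums of 10940 to 12440 at 13.5 dpc and 13411 to 37533 at 15.5 dpc. Of 6 immune markers 2 were lower, with sums of 1117 to 1156 and of 795 to 926. Of 5 duct markers tested 2 were higher and 1 lower, with sums of 15502 to 16257 and of 13693 to 17356. The sums of 5 endothelial markers overlapped, at 4652 to 5156 and 4200 to 5560. The part of these cell types in the differences of *Sox4*, *Insm1*, *Myt1* and *St18* was not tested.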

How the data were processed

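Whole wt pancreata were measured by poly(A) RNA sequencing with strand-specific libraries. The authors mapped single-end reads to mm10 (GSNAP) and used featureCounts 1.4.6 to count reads with a unique alignment against Ensembl genes (version per the submitters' processing notes, which also name bcl2fastq 1.8.4). The deposited values are raw counts per gene with the exon length, and reads in bases shared by overlapping genes may be lost or misassigned. All 6 columns were used.

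Gene symbols came from GENCODE annotation of mm10 (35449 of 37224 identifiers matched). Counts were tested in R 4.3.3 with edgeR 4.0.16 (TMM, filterByExpr, quasi-likelihood test, Benjamini-Hochberg adjustment over the 15578 genes tested, call at an adjusted p at or below 0.05), and the SE is the absolute log2 fold change over the root of F. The steps were tested on simulated data. Ratios were tested by exact permutation in Python 3.11.15 with SciPy 1.17.1. Alternatives were library size, upper quartile, RLE, the sum of 10 epithelial genes, TMM without genes above 1% of a library, a lowess trend with exon length removed (span 0.5), DESeq2 1.42.0, filters of no minimum or 10 counts in every sample, the replicate number as a block and each sample left out.

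The 10 genes and all lists were chosen with earlier results of these data known. Of each list, at most 4 genes with the largest absolute log2 fold change among those called were named, with the 5 genes most like *Neurog3* and *Sox4*. *Hes1*, *Dll4*, *Rbpj*, *Cbfa2t3*, *Ssbp3*, *Chgb*, *Gcg*, *Hand2*, *Fam241b*, *Cerkl*, *Vil1* and *Sct* were named after their values were seen. Some genes that the rule names are not reported here. Windows of 50 bases shared with other transcripts were 5.71% for *Neurod1* (with *Cerkl*), 0.754% for *Insm1* and 0% for the other 8 genes.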

Additional observations from a re-analysis of the deposited data

How the results depend on the processing

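The number of genes called was 9231 when scaled to epithelial genes and 1235 to 7620 when each sample was left out, the highest without 15.5 dpc replicate 2. Of the 10 transcription factor genes, 9 were called when scaled to epithelial genes and 1 with the replicate block, and 1 to 8 with each sample left out. With the replicate block, fewer of all genes were called lower than the 1662 called under TMM without it. The count of 1 is therefore to be read against a smaller background. Scaling to epithelial genes moved the median of all genes to -0.65, so the sign of *Foxa2* (-0.26), *Rfng* (-0.02) and *Dll4* (-0.11) turned by construction, all 3 staying above that median. *Hes1* was not called with TMM and changed sign, to -0.21 with library size only, -0.01 with the upper quartile, -0.67 scaled to epithelial genes, -0.12 with the length trend removed, -0.01 with no filter and -0.01 with the replicate block, and ranged from -0.21 to 0.20 with each sample left out. The values of *Hes1* with library size only and with epithelial scaling lie at the medians of all genes there (-0.22 and -0.65), so they are the common shift. The change of *Neurod1* ranged from -0.12 to 0.05 with each sample left out. The log2 ratios to *Neurog3* ranged, with each sample left out, from -0.13 to 0.04 for *Insm1*, -0.07 to 0.08 for *Nkx2-2*, -0.16 to 0.01 for *Pax4*, -0.02 to 0.13 for *Fev*, -0.16 to 0.20 for *Rfx6*, -0.31 to 0.24 for *St18*, -0.42 to 0.17 for *Myt1*, 0.14 to 0.41 for *Neurod1* and -0.89 to -0.51 for *Sox4*. With the length trend removed, which was added after seeing the data, the ratios of *Insm1* (0.15), *St18* (0.35) and *Myt1* (0.26) changed sign. With the longest transcript, 6 of the 10 genes kept their rank at 13.5 dpc. The cause was not tested for the other changes.

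Over 160 comparisons of the 10 genes with an alternative, 126 kept direction and call, 16 lost the call, 16 gained it and 2 changed sign. Over 704 comparisons of 44 of the other named genes, 590 kept both, 93 lost the call, 10 gained it and 11 changed sign. Same-numbered samples of the stages deviated with correlations of 0.21, -0.21 and 0.03 for replicates 1, 2 and 3, and only 1 of the 3 numbers matched its own number best, so the numbers do not pair the samples. With 3 samples per stage, differences of the size of *Rfx6*, *St18* and *Myt1*, whose 15.5 dpc samples spread widely, could not be told from the spread.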
